A study of Homo sapiens with 38 samples.

Results

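The genes of the proteasome were followed in RKO, a cell line from a human colorectal cancer, during treatment with inhibitors of the histone demethylase LSD1. Members were chosen by name alone, as every gene symbol that begins with PSM, continues with a letter from A to G and ends in a number. This gave 48 of the 25504 genes with a unique name, which were 8 PSMA, 11 PSMB, 6 PSMC, 14 PSMD, 4 PSME, 1 PSMF and 4 PSMG genes. Of these, 46 were among the 10865 genes called expressed, with a mean of at least 1 over the 8 RNA-seq libraries in FPKM, which counts fragments relative to exon length and to all mapped fragments. The remaining 2 were PSMA8, which is known from testis and was listed at 0 in all libraries, and PSMB11, the subunit of the thymus proteasome, which was listed at 0.0325 FPKM with NCD38 on day 30, at 0.0314 FPKM with DMSO on day 4 and at 0 in the other libraries.

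Cells received the solvent dimethyl sulfoxide (DMSO) alone, the LSD1 inhibitor NCD38, or NCD38 joined to a pyrrole-imidazole polyamide, a small molecule built to bind a chosen DNA sequence. The conjugate NCD38-β2P4 was made to recognise 6 consecutive A or T bases, and NCD38-β2PIPP a CG with 2 A or T bases on each side. The inhibitors were given at 2 μM in 0.1% DMSO with new medium every 5 days, and RNA was taken on day 30 or on day 4. The sample labels give 2 μM for both days, whereas the study's methods print the day 4 amount in mM, so the dose on day 4 carries this doubt. Each of the 8 combinations of treatment and day had 1 library from 1 cell line. The days therefore stood in as repeats of a treatment and the treatments as repeats of a day, and day cannot be told apart from differences in culture, passage or library preparation between the 2 collections.

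The proteasome is the protease that degrades proteins marked with ubiquitin. Its core is a barrel of alpha rings (PSMA), which gate the entrance, and beta rings (PSMB), which hold the proteolytic sites. A cap on the barrel has a ring of ATPases (PSMC) that unfold substrates, further base subunits that receive ubiquitin, and a lid (PSMD) whose subunit PSMD14 removes the ubiquitin chain. Interferon induces PSMB8, PSMB9 and PSMB10, which replace PSMB5, PSMB6 and PSMB7 in the immunoproteasome. Assembled particles hold the subunits of a ring in equal number, and the transcription factor NFE2L1 is known to raise many of the genes together when proteasome activity is low.

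Promoters of 4 members are shown because the polyamide parts of the conjugates read DNA sequence. PSMA3 and PSMD2 were taken for the most positive and the most negative difference between days, and PSMB9 and PSMB10 as immunoproteasome members. Each run holds the 250 bases before the RefSeq gene start on GRCh38.p14, and capitals mark matches on either strand to CCAAT, to TGANNNNGC (a core of the element read by NFE2L1 and NFE2L2), to GAAA followed by any 2 bases and GAAA (a core of the interferon response element) or to TTCNNNGAA (a STAT core).
PSMA3 (chr14:58244593-58244842, plus strand): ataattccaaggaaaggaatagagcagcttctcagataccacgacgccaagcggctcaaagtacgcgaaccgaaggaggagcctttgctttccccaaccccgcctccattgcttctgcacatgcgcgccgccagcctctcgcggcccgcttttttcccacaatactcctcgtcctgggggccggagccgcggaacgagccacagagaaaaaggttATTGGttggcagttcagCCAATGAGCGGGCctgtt
PSMD2 (chr3:184298991-184299240, plus strand): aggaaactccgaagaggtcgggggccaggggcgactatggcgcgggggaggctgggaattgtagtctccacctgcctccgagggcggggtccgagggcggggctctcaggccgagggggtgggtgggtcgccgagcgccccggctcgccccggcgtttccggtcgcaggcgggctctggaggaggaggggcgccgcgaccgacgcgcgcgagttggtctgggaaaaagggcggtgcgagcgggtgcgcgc
PSMB9 (chr6:32853942-32854191, plus strand): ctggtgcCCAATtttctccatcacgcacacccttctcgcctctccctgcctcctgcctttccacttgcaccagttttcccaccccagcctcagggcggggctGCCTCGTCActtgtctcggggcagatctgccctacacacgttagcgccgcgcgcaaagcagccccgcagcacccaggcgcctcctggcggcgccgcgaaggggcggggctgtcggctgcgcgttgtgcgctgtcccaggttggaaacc
PSMB10 (chr16:67936851-67937100, minus strand): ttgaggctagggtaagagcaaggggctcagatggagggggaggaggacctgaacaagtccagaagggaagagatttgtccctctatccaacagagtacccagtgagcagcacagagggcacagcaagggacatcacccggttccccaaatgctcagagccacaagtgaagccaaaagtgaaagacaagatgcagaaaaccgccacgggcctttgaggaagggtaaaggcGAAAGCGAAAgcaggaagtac

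In PSMA3, CCAAT began 18 bases before the start on the plus strand and 35 bases before it on the minus strand, and TGANNNNGC began 14 bases before it and overlapped the nearer CCAAT. The PSMB10 promoter had the interferon response core 21 bases before the start. In PSMB9 the marks were CCAAT at 243 bases and TGANNNNGC at 148 bases, and in PSMD2 none of these letters were found in this window. RefSeq promoters were matched for 42 of the 48 members. CCAAT was in 42.9% of them, against 33% of all 27305 promoters. TGANNNNGC was in 54.8% against 35.4%, TTCNNNGAA in 11.9% against 6.78% and the GC box GGGCGG, which is not capitalised above and can lie within other matches, in 61.9% against 42.3%. The interferon response core was in 5 member promoters (PSMA4, PSMB4, PSMB10, PSME2 and PSMG4), or 11.9% against 3.07%. For the letters that the conjugates were made to recognise, 6 consecutive A or T bases were in 52.4% of member promoters against 59.6% of all, and CG with 2 A or T bases on each side in 11.9% (PSMA1, PSMB2, PSMC3, PSMD8 and PSMF1) against 14%. Median promoter GC content was 61.6% for the members and 58% for all promoters, and the shares were not compared at like GC content. These shares describe the sequence and were not tested.

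FPKM summed to between 677739 and 822230 per library, and depth estimated from the value of 1 fragment was between 12200000 and 22800000 fragments. Counting error at that depth gave a 95% half-width of 0.02 to 0.62 (median 0.09) on the log2 scale for the ratio of 2 libraries at an expressed member, and covers counting error only. Ranked levels of expressed genes correlated at 0.902 to 0.974 (Spearman) within a day and at 0.695 to 0.816 across days. Libraries also differed by transcript GC content. Genes in the fifth of the genes with the lowest GC content stood at a median of 0.57 to 0.79 above their mean over the libraries on the log2 scale on day 30, and on day 4 at -0.86 for DMSO, -1.22 for NCD38, -0.51 for NCD38-β2P4 and -0.08 for NCD38-β2PIPP. Of 7 colorectal epithelial markers, EPCAM, KRT8, KRT18 and CDX2 were expressed, CDH1 reached at most 0.0642 FPKM, and KRT20 and VIL1 were listed at 0. EPCAM moved with the day, from 0.0922 to 0.867 FPKM over the day 4 libraries to 3.94 to 6.53 FPKM on day 30 (2.11, SE 0.16, limma adjusted p = 5.46e-04), and KRT8 was at a log2 ratio of -1.12 with NCD38 against DMSO on day 30. Their part in the results below was not tested. Markers of leukocytes summed to at most 0.0801 FPKM, with PTPRC and CD3E at 0, those of fibroblasts to at most 0.027 and those of endothelial cells to at most 0.0152. Many proteasome genes have processed pseudogenes, and how reads shared with such copies were counted is not given in the sources used here. In RNA from a whole culture, fewer cells that express a gene and less RNA per cell cannot be told apart.

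Levels per length differed widely among the members, also among subunits that the assembled particle holds in equal number. Among the PSMA genes the highest mean FPKM over 8 libraries was 264 for PSMA7 and the lowest 27.8 for PSMA5. Among the PSMB genes these were 694 for PSMB7, which carries the trypsin-like site, and 18.1 for the immunoproteasome member PSMB9. Within the constitutive beta ring the lowest was 30.1 for PSMB2. The ATPases ran from 150 for PSMC4 down to 20.2 for PSMC6. The PSMD genes ran from 399 for PSMD2, a scaffold of the base, to 14.8 for PSMD10, an assembly chaperone also known as gankyrin. PSMD10 is not part of the finished particle, and among base and lid genes the lowest was 19.6 for PSMD1.

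**Figure D1:**
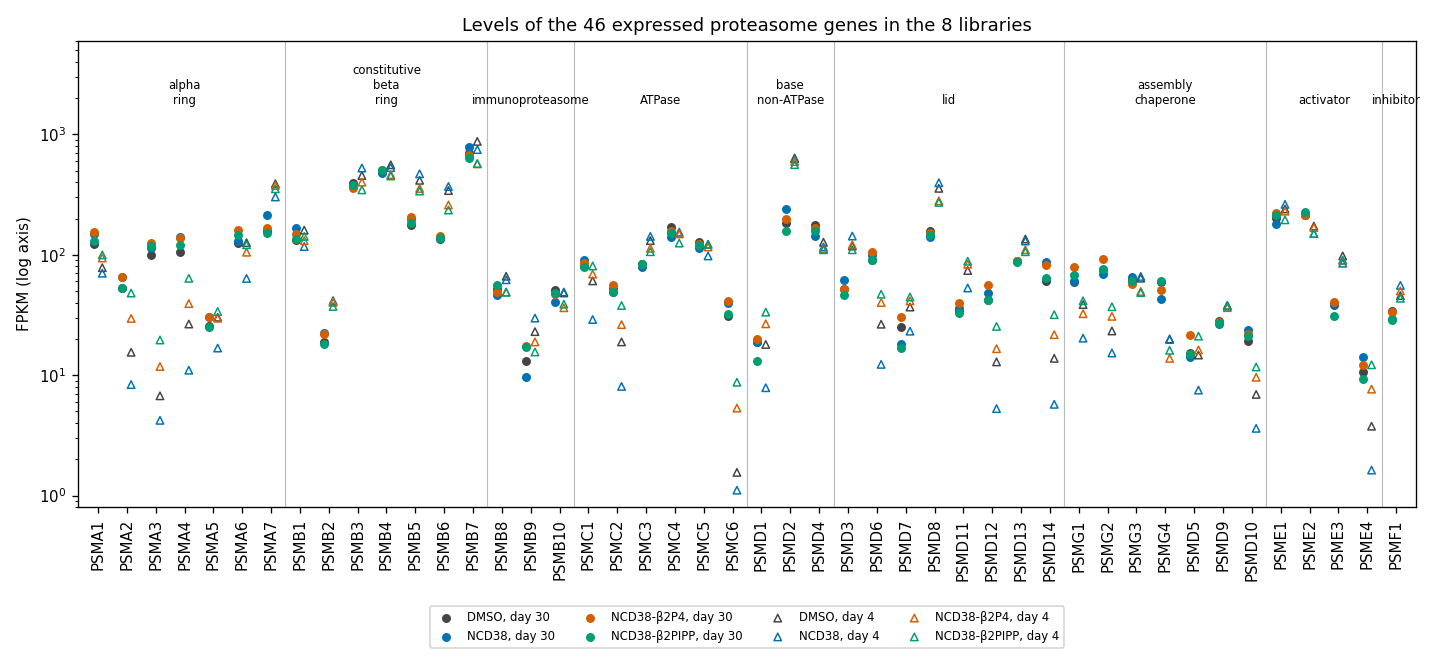
FPKM (log axis) of the 46 expressed proteasome genes, 1 point per library, with filled circles for day 30, open triangles for day 4 and colours for treatments. PSMA3 and PSMC6 show day 4 libraries far below day 30, PSMD2 shows them above it, and NCD38 on day 4 is the lowest point for most of the genes that were lower on day 4.

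The first comparison asked how the genes differed between day 30 and day 4, over all 4 treatments. Fitted with limma on log2(FPKM + 1), with treatment as a block and p-values adjusted over 10865 genes, 15 of the 46 expressed members were higher on day 30, 14 were lower and 17 did not pass an adjusted p of 0.05. As background, 30.2% of all expressed genes were higher and 31.7% lower. The members' median difference was 0.08, against -0.02 for all expressed genes. Without regard to the fit, the 4 libraries of day 30 lay wholly above those of day 4 for 15 members and wholly below them for 13, against a background of 29.5% and 33.1% of genes. The members' share of calls was near this background, and the following values are those of single subunits and subcomplexes.

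In the alpha ring, 4 of 7 expressed members were higher on day 30, 1 was lower and 2 were not called, with a median difference of 0.71. PSMA3 (hg19 chr14:58711561-58738722, 11 exons), a subunit of this ring, had the largest difference of all members. On day 30 it was at 99.3 FPKM in the DMSO library, 113 in that of NCD38, 125 in that of NCD38-β2P4 and 118 in that of NCD38-β2PIPP. On day 4, in the same order of treatments, which is kept below, it was at 6.74, 4.22, 11.8 and 19.6 FPKM. All day 30 libraries lay above all day 4 libraries, with means of 114 ± 10.9 and 10.6 ± 6.78 FPKM (SD, n = 4 each), and the difference in log2(FPKM + 1) was 3.49 (SE 0.31, limma adjusted p = 6.96e-04). PSMA4 was higher by 2.05 (SE 0.42, adjusted p = 0.00842), PSMA2 by 1.45 (SE 0.43, adjusted p = 0.0299) and PSMA1 by 0.71 (SE 0.14, adjusted p = 0.00696). Another subunit of the ring, PSMA7, went the other way. It was at 157, 214, 168 and 152 FPKM on day 30 and at 389, 302, 376 and 353 FPKM on day 4, without overlap, a difference of -1.04 (SE 0.16, adjusted p = 0.00321). PSMA5, at 25.8, 30.4, 30.5 and 24.9 FPKM on day 30 and 30.3, 16.8, 29.7 and 33.8 FPKM on day 4, had overlapping days and a difference of 0.05 (95% confidence interval -0.51 to 0.62). The call for PSMA2 was lost without the DMSO libraries (adjusted p = 0.109) and without the NCD38-β2P4 libraries (adjusted p = 0.0763).

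Of the 7 genes of the constitutive beta ring, none was higher on day 30, 3 were lower and 4 were not called, with a median difference of -0.17. With the trend with GC content subtracted, PSMB4 was called higher (0.46, adjusted p = 0.0404). PSMB5, which carries the chymotrypsin-like site and is the main target of bortezomib, was at 175, 200, 204 and 184 FPKM on day 30 and at 415, 470, 355 and 338 FPKM on day 4. PSMB6, which carries the caspase-like site, was at 134, 137, 143 and 137 FPKM on day 30 and at 341, 369, 259 and 235 FPKM on day 4. Days did not overlap for either gene, and the differences were -1.03 (SE 0.12, adjusted p = 0.00138) and -1.10 (SE 0.15, adjusted p = 0.00217). PSMB2 was lower by -0.95 (SE 0.11, adjusted p = 0.00125). PSMB7, the remaining catalytic subunit, was at 699, 781, 672 and 638 FPKM on day 30 and at 873, 747, 568 and 573 FPKM on day 4, with overlapping days and a difference of 0.03 (95% confidence interval -0.29 to 0.36). The 3 constitutive catalytic subunits thus did not share a direction of call.

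None of the 3 immunoproteasome genes passed the test between days. PSMB8 (chr6:32808494-32811824), which takes the place of PSMB5, was at 52, 46.5, 49 and 56.4 FPKM on day 30 and at 66.3, 62, 49 and 48.8 FPKM on day 4, with a difference of -0.14 (95% confidence interval -0.49 to 0.22). PSMB9, whose gene lies 10144 bases from PSMB8 in the major histocompatibility region, was at 13.1, 9.62, 17.5 and 17.3 FPKM on day 30 and at 23, 29.8, 18.9 and 15.6 FPKM on day 4, with a difference of -0.57 (-1.31 to 0.18). PSMB10 on chromosome 16 was at 51, 40.4, 47.1 and 48.1 FPKM on day 30 and at 48.2, 49.1, 36.3 and 38.9 FPKM on day 4, with a difference of 0.12 (-0.24 to 0.48). Days overlapped for all 3 genes, and the intervals allow changes of these sizes in either direction. When the trend with GC content was subtracted, PSMB8 (0.49, adjusted p = 0.0279) and PSMB10 (0.82, adjusted p = 0.00201) passed the test as higher on day 30, and PSMB9 did not.

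Set against its constitutive counterpart, PSMB8 stood at 29.7%, 23.2%, 24% and 30.6% of the PSMB5 level on day 30 and at 16%, 13.2%, 13.8% and 14.4% on day 4. The days did not overlap, with means of 26.9% ± 3.84 and 14.3% ± 1.2 (SD, n = 4 each). A two-sided exact permutation test gave p = 0.0286, the smallest that 4 against 4 libraries allow, and 0.0857 after adjustment over the 3 ratios. Permuted within the 4 treatments, which pair the libraries across days, the ratio was higher on day 30 in 4 of 4 treatments and the exact p was 0.125, the smallest that this design allows. PSMB9 stood at 9.76%, 7.04%, 12.2% and 12.6% of PSMB6 on day 30 and at 6.74%, 8.08%, 7.31% and 6.62% on day 4 (exact permutation p = 0.0857, adjusted 0.129, and 0.25 within treatments). PSMB10 stood at 7.29%, 5.18%, 7.02% and 7.54% of PSMB7 on day 30 and at 5.53%, 6.57%, 6.39% and 6.79% on day 4 (exact permutation p = 0.486, and 0.625 within treatments). In all libraries each immunoproteasome gene was below its counterpart, and the separation of days for PSMB8 came with the called difference of PSMB5 and the uncalled difference of PSMB8 given above.

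Among the 6 ATPases, 2 were higher on day 30 (PSMC6 and PSMC2), 1 was lower (PSMC3) and 3 were not called. PSMC6 was at 31.2, 39.9, 41.6 and 32 FPKM on day 30 and at 1.56, 1.11, 5.33 and 8.74 FPKM on day 4, so the days were far apart. The difference of 3.11 (SE 0.42, adjusted p = 0.00203) is understated at such low levels by the added 1. PSMC2 was higher by 1.34 (SE 0.35, adjusted p = 0.0208). PSMC4, the most abundant of the ring, was at 169, 141, 157 and 153 FPKM on day 30 and at 150, 154, 149 and 125 FPKM on day 4, overlapping, with a difference of 0.10 (95% confidence interval -0.17 to 0.38). PSMC3 was lower by -0.56 (SE 0.12, adjusted p = 0.0104). The calls for PSMC2 (adjusted p = 0.0773) and PSMC3 (adjusted p = 0.0573) were lost without the DMSO libraries, and that for PSMC2 also without the NCD38-β2P4 libraries (adjusted p = 0.0613).

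All 8 lid genes were called, 3 of them higher on day 30 and 5 lower. PSMD14, the deubiquitinase of the lid, was at 60.9, 86.7, 81.6 and 64.4 FPKM on day 30 and at 13.8, 5.73, 21.7 and 31.8 FPKM on day 4, a difference of 2.16 (SE 0.43, adjusted p = 0.00766). PSMD12 (1.76, adjusted p = 0.0084) and PSMD6 (1.74, adjusted p = 0.00636) were also higher. PSMD3, which is a lid subunit of the same family as these 2, was at 51.7, 62.2, 51.5 and 45.9 FPKM on day 30 and at 118, 143, 121 and 110 FPKM on day 4, a difference of -1.21 (SE 0.09, adjusted p = 5.34e-04). PSMD8 (-1.11), PSMD11 (-1.03), PSMD7 (-0.66) and PSMD13 (-0.44) were the other lower genes of the lid. Of these, PSMD7 had overlapping days, at 25.2, 18.1, 30.5 and 16.8 FPKM and at 36.8, 23.2, 41.4 and 44.6 FPKM. The calls for PSMD7 and PSMD13 were lost without the DMSO libraries (adjusted p = 0.0944 and 0.0843) and without the NCD38-β2P4 libraries (0.0773 and 0.0523).

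In the base, PSMD2 had the most negative difference of all members. It was at 184, 238, 199 and 159 FPKM on day 30 and at 636, 623, 594 and 560 FPKM on day 4, a difference of -1.64 (SE 0.12, adjusted p = 4.82e-04). PSMD4, a receptor for ubiquitin chains, was higher by 0.47 (SE 0.10, adjusted p = 0.00943), and this call was lost without the DMSO libraries (adjusted p = 0.0521) and without the NCD38-β2P4 libraries (adjusted p = 0.059). PSMD1, the other large scaffold, was at 19, 19, 20.1 and 13.1 FPKM on day 30 and at 18, 7.87, 26.7 and 33.4 FPKM on day 4. Its day 4 libraries spanned those of day 30, with a difference of -0.11 (95% confidence interval -1.09 to 0.88).

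Assembly chaperones, which are not part of the finished particle, had 4 of 7 members higher on day 30, 1 lower and 2 not called, with a median difference of 1.03. PSMG1, which pairs with PSMG2 to guide the alpha ring, was at 59.4, 60.6, 79.6 and 67.4 FPKM on day 30 and at 38.6, 20.3, 32.4 and 41.5 FPKM on day 4. PSMG2 was at 74.5, 69.7, 93.1 and 76.4 FPKM on day 30 and at 23.3, 15.3, 30.8 and 37 FPKM on day 4. Both were separated by day, by 1.03 (SE 0.19, adjusted p = 0.00611) and 1.59 (SE 0.19, adjusted p = 0.00142). PSMG4 was at 59.7, 43.1, 51.1 and 60.5 FPKM on day 30 and at 20, 19.8, 13.8 and 16.1 FPKM on day 4, a difference of 1.57 (SE 0.17, adjusted p = 9.96e-04). Its partner PSMG3 overlapped, at 62.2, 65.4, 57.6 and 60.4 FPKM and at 63.9, 66.1, 49.6 and 48.5 FPKM, with a difference of 0.12 (95% confidence interval -0.16 to 0.40). Among the chaperones of the base, PSMD10 was higher by 1.43 (adjusted p = 0.0079), PSMD9 was lower by -0.43 (adjusted p = 0.0136) and PSMD5 was not called (0.20). PSMD10 was at 19.4, 23.9, 22.1 and 21.1 FPKM on day 30 and at 6.92, 3.62, 9.61 and 11.7 FPKM on day 4. The PSMD9 call was lost without the DMSO libraries (adjusted p = 0.0754) and without the NCD38-β2P4 libraries (adjusted p = 0.0683).

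Of the activators, which open the barrel in place of the cap, PSME1 and PSME2 form the interferon-inducible ring and lie 4402 bases apart on chromosome 14. PSME1 was at 203, 180, 221 and 214 FPKM on day 30 and at 240, 262, 230 and 195 FPKM on day 4, with a difference of -0.18 (95% confidence interval -0.52 to 0.17). PSME2 was at 215, 213, 214 and 226 FPKM on day 30 and at 173, 150, 168 and 150 FPKM on day 4, a difference of 0.43 (SE 0.10, adjusted p = 0.013), a call lost without the NCD38-β2P4 libraries (adjusted p = 0.0535). PSME2 was thus separated by day whereas its partner was not, and the difference between these genes was not tested. The nuclear activator PSME3 was at 38.1, 38.9, 40.9 and 31.3 FPKM on day 30 and at 97.8, 85.1, 89.7 and 90.2 FPKM on day 4, a difference of -1.26 (SE 0.12, adjusted p = 7.47e-04). PSME4 was at 10.6, 14.2, 12.2 and 9.35 FPKM on day 30 and at 3.77, 1.63, 7.66 and 12.2 FPKM on day 4, with a difference of 1.02 (95% confidence interval -0.15 to 2.18), and, among the fits that left out a treatment, was called only without the NCD38-β2PIPP libraries (1.47, adjusted p = 0.0344). The inhibitor PSMF1 was at 34.2, 29.2, 33.6 and 28.8 FPKM on day 30 and at 45.8, 55.7, 50.1 and 43.5 FPKM on day 4, a difference of -0.62 (SE 0.12, adjusted p = 0.00821).

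**Figure D2:**
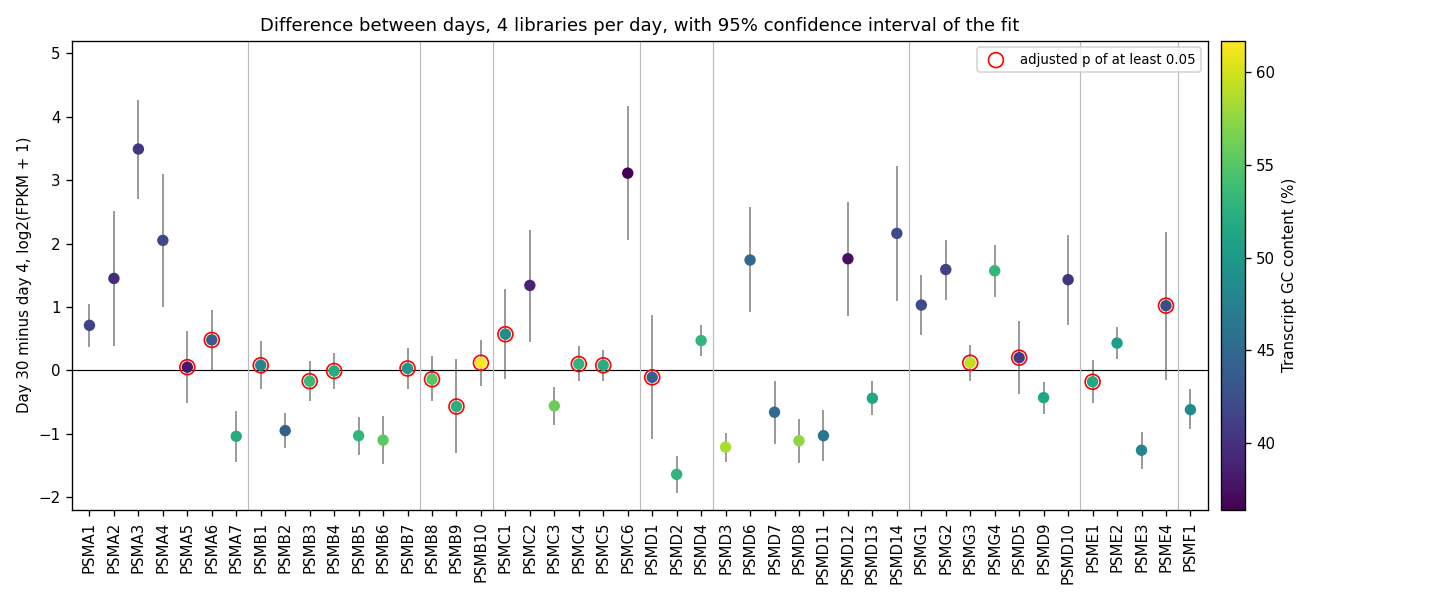
Difference between days in log2(FPKM + 1), day 30 minus day 4, for the 46 expressed members in the order of their subcomplexes, with 95% confidence intervals of the fit over 4 libraries per day; colour gives transcript GC content and a red ring an adjusted p of at least 0.05. PSMA3 (3.49) and PSMC6 (3.11) are highest, PSMD2 (-1.64) is lowest, and most of the darkest points, of low GC content, lie above 0.

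The direction of the day difference went with the base composition of the transcripts. Among the 23 expressed members with lower GC content (36.4% to 48.4%), 12 were higher on day 30 and 5 lower, with a median of 1.02, and all 4440 genes in that range of GC content had 2307 higher, 292 lower and a median of 0.80. Among the 23 with higher GC content (48.6% to 61.7%), 3 members were higher and 9 lower, with a median of -0.17, against 365 higher, 2232 lower and a median of -0.55 for 4191 genes. The Spearman correlation of the difference with GC content was -0.59 across the members and -0.68 across 10184 genes, which share the same libraries, and it describes these libraries only. The alpha ring had a median GC content of 41.4% and the constitutive beta ring one of 52%. When the trend with GC content was subtracted from each library, 16 members were higher on day 30 and 12 lower, and 19 of the 29 calls remained with the same sign. The order of the subcomplexes did not hold under that subtraction. The median of the alpha ring went from 0.71 to 0.08 and that of the constitutive beta ring from -0.17 to 0.20, so that the beta ring then lay above the alpha ring. The median of the assembly chaperones went from 1.03 to 0.32, below the ATPases at 0.62 and the immunoproteasome genes at 0.49.

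PSMA3 (2.38, adjusted p = 1.70e-04), PSMG4 (2.16, adjusted p = 4.25e-04), PSMC6 (1.53, adjusted p = 0.00468) and PSMD6 (1.34, adjusted p = 0.00117) were still higher on day 30 after that subtraction. PSMB2 (-1.35, adjusted p = 0.00254), PSMD11 (-1.26, adjusted p = 4.56e-04), PSME3 (-1.15, adjusted p = 0.00113) and PSMD2 (-1.05, adjusted p = 8.96e-04) were still lower. PSMA5, which was near 0 without the subtraction, was lower with it (-1.37, adjusted p = 6.41e-04). The 10 calls lost were those of PSMA1, PSMA2, PSMC2, PSMC3, PSMD9, PSMD10, PSMD12, PSMD13, PSMF1 and PSMG1, and the 9 gained those of PSMA5, PSMB4, PSMB8, PSMB10, PSMC1, PSMC4, PSMC5, PSMD5 and PSMG3. PSMA1, PSMC2, PSMC3, PSMD9 and PSMD13 also had the other sign, without a call. The part of GC content in the remaining differences was not tested.

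The spread of levels among subunits of the same assembly also differed between days. The SD of log2 FPKM over PSMA1 to PSMA7 was 0.91 to 0.97 in the day 30 libraries and 1.36 to 2.15 in those of day 4, and the highest subunit stood 5.52 to 7.03 times and 18 to 71.6 times above the lowest. For the 6 ATPases the SD was 0.68 to 0.89 on day 30 and 1.49 to 2.82 on day 4, with 140 times between PSMC4 and PSMC6 with NCD38 on day 4. Base and lid PSMD genes had an SD of 1.06 to 1.25 on day 30 and 1.38 to 2.46 on day 4. The constitutive beta ring went the other way, at 1.64 to 1.74 on day 30 and 1.33 to 1.5 on day 4. In each of the assemblies the days did not overlap. For the alpha ring, the ATPases and the PSMD genes the spread on day 4 was largest with NCD38, then DMSO, NCD38-β2P4 and NCD38-β2PIPP, the order in which the median of low-GC genes rises in these libraries. Across expressed genes, level correlated with GC content at 0.0902 to 0.149 (Spearman) in the day 30 libraries and at 0.371 to 0.575 in those of day 4. The spread was not computed for other sets of genes, and these scores over members were given no test.

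The second comparison asked whether the LSD1 inhibitors changed proteasome gene expression against DMSO. Over both days, none of the 46 expressed members passed the limma test with NCD38, NCD38-β2P4 or NCD38-β2PIPP, and none had an unadjusted p under 0.05. In these contrasts 0.0368%, 0.0184% and 0.0184% of all expressed genes were called. An unadjusted p under 0.05 was also rare among all 10865 expressed genes, with 145, 32 and 62 genes in turn. The absence of such members is therefore not particular to the proteasome genes. The members' median difference was -0.12, 0.04 and -0.08 in the same order of inhibitors, against -0.08, 0.08 and 0.10 for all expressed genes. In the fit over both days, here and in the pairs below, any difference of a treatment between days goes into the error. In that order, 31, 17 and 19 of the 46 members had opposite signs against DMSO on day 30 and day 4. Among all expressed genes 60.2%, 36.8% and 50.9% did. Responses limited to 1 day or opposite between days could therefore go uncalled. The fit had 3 residual degrees of freedom. The 95% confidence interval of a member reached 0.32 to 1.64 (median 0.53) to either side on the log2 scale. These intervals are not adjusted for the number of genes tested. A difference smaller than its own half-width was therefore not detectable even before adjustment. A larger one could still go uncalled after adjustment, so the intervals do not give the smallest detectable change.

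The compounds were also compared with each other, as 3 pairs at the same labelled dose and times. NCD38 and the conjugates differ by the attached polyamide, and the conjugates from each other by the sequence that the polyamide was made to recognise. No member was called in any pair, where 0.0092% (NCD38-β2P4 against NCD38), 0.0184% (NCD38-β2PIPP against NCD38) and 0.0276% (NCD38-β2P4 against NCD38-β2PIPP) of genes were called. PSMD7 (0.77, 95% confidence interval 0.06 to 1.48) and PSMG2 (0.69, 0.01 to 1.36) had an unadjusted p under 0.05 for NCD38-β2P4 against NCD38, with an adjusted p of 0.71 in limma. For NCD38-β2PIPP against NCD38 these were PSMD3 (-0.40, -0.73 to -0.08) and PSMG2 (0.68, 0.00 to 1.35), with an adjusted p of 0.53. Between the conjugates there were none. Among all 10865 expressed genes, 352, 692 and 34 had an unadjusted p under 0.05 in these pairs in turn. Adjusted over all 3 pairs together, the smallest p of a member was 0.865. For PSMB9 the interval of the difference was -0.97 to 1.14 for NCD38-β2P4 against NCD38 and -0.91 to 1.20 between the conjugates, so a change of about 1 on the log2 scale would have been within the error.

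On day 30 the library of each inhibitor was close to the DMSO library. No member reached 1.5-fold in either direction with any inhibitor, where 4% of expressed genes were higher and 2.8% lower by that size with NCD38, 1.43% and 0.874% with NCD38-β2P4, and 1.72% and 0.911% with NCD38-β2PIPP. The log2 ratios of the members ran from -0.46 (PSMG4) to 0.50 (PSMD14) with NCD38, from -0.22 (PSMG4) to 0.46 (PSMD5) with NCD38-β2P4, and from -0.56 (PSMD7) to 0.38 (PSMB9) with NCD38-β2PIPP. Median ratios of the members were 0.04, 0.12 and -0.01, against 0.06, 0.06 and -0.01 for all expressed genes. All 7 expressed alpha ring members were above the DMSO library for NCD38 (0.06 to 0.45) and for NCD38-β2P4 (0.10 to 0.38), and 5 of 7 for NCD38-β2PIPP, where 59%, 62.1% and 46.2% of all expressed genes were above it. Across the members these ratios had Spearman correlations with GC content of -0.46, -0.77 and -0.26, beside -0.17, -0.52 and -0.03 across 10184 genes. The alpha ring had a low median GC content of 41.4%. Of the 23 members with lower GC content, 19, 22 and 13 were above the DMSO library. The median log2 ratios of these 23 were 0.18, 0.27 and 0.02, beside 0.10, 0.17 and -0.01 for all genes of that GC range. The part of GC content in the alpha ring ratios was not tested. Each of these ratios rests on 1 library against 1, and the inhibitors share the DMSO library.

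On day 4 the libraries were further from DMSO, and in different directions. With NCD38, 15 members were at least 1.5-fold lower and none higher, against 22.5% and 2.1% of expressed genes. With NCD38-β2P4, 5 were higher and 1 lower (7.87% and 1.68% of genes), and with NCD38-β2PIPP 12 were higher and 1 lower (27.1% and 1.91%). Median ratios of the members were -0.21, -0.05 and -0.09, against -0.21, 0.09 and 0.17 for all expressed genes. The extremes were PSMA4 (-1.21) and PSMB9 (0.36) with NCD38, PSMB7 (-0.62) and PSMC6 (1.30) with NCD38-β2P4, and PSMB7 (-0.60) and PSMC6 (1.93) with NCD38-β2PIPP. PSMA4 was at 105, 141, 137 and 121 FPKM on day 30 and at 26.6, 11, 39.3 and 63.7 FPKM on day 4, so that on day 4 NCD38 was lowest and NCD38-β2PIPP highest. PSMD5, at 15.3, 14.2, 21.5 and 14.9 FPKM on day 30, was likewise lowest with NCD38 and highest with NCD38-β2PIPP on day 4, at 14.7, 7.52, 16.2 and 21.1 FPKM.

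These day 4 ratios also went with GC content. Members with lower GC content had a median log2 ratio of -0.81 for NCD38, 0.34 for NCD38-β2P4 and 0.65 for NCD38-β2PIPP, and all genes of that GC range had -0.48, 0.30 and 0.64. Members with higher GC content had 0.01, -0.21 and -0.30, against -0.04, 0.00 and -0.03. The correlation with GC content across the members was 0.76, -0.74 and -0.83 in turn, beside 0.59, -0.53 and -0.69 across 10184 genes. With the trend subtracted, 3 members were higher and 3 lower by at least 1.5-fold for NCD38, 1 and 2 for NCD38-β2P4, and 3 and 6 for NCD38-β2PIPP. Rescaling each library by its median ratio gave 4 higher and 8 lower, 4 and 2, and 9 and 8. The directions of the members' day 4 counts therefore held for the values as deposited and not under both of these settings.

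Other genes of the pathway were counted from lists chosen by function. Of 10 partners of the particle, 4 were higher on day 30, 1 lower and 5 not called. SHFM1, a small lid subunit, was at 734, 844, 747 and 753 FPKM on day 30 and at 106, 103, 173 and 196 FPKM on day 4, a difference of 2.46 (SE 0.21, adjusted p = 6.51e-04). POMP, which builds the beta ring, was higher by 1.09 (adjusted p = 0.00698), and ADRM1, a ubiquitin receptor, was lower by -1.19 (adjusted p = 9.00e-04). Of 4 regulators, NFE2L2 and NGLY1 were higher and NFE2L1 lower, the last at 11.8, 15.1, 12.5 and 15.2 FPKM on day 30 and 31.1, 24.3, 34 and 37.6 FPKM on day 4 (-1.15, SE 0.16, adjusted p = 0.00239). Ubiquitin and shuttling genes had 1 of 13 higher, 7 lower and 5 not called, with UBB (-1.08) and VCP (-1.14) among the lower. The 7 genes that interferon induces alongside the immunoproteasome had none higher, 5 lower and 2 not called, among them TAP1 (-1.05, adjusted p = 0.00142) and IRF1 (-1.24, adjusted p = 0.00127), whereas the immunoproteasome genes had no call. Over the 34 pathway genes there were 7 higher and 14 lower, against the background of 30.2% and 31.7% given above. By a size of at least 1.5-fold against DMSO, 2 of the 34 were higher with NCD38 on day 30 and there was no other on that day. On day 4, 10 were lower and none higher with NCD38, 6 were higher and none lower with NCD38-β2P4, and 14 were higher and none lower with NCD38-β2PIPP, beside backgrounds of 22.5% lower, 7.87% higher and 27.1% higher.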

How the data were processed

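RNA from 8 RKO libraries was analysed, and 30 ChIP samples were not analysed here. The authors deposited FPKM per gene, which they made from TruSeq Stranded mRNA libraries with TopHat and Cufflinks according to the study's methods. The submitters' processing notes name HISAT2 2.2.1.0, Cufflinks and hg19 without roles. Read counts cannot be had from FPKM, and a value of 0 may come from an estimate that failed. Of 25594 entries, 90 with repeated names were left out.

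Log2(FPKM + 1) of genes with a mean FPKM of at least 1 was fitted with limma 3.58.1 (R 4.3.3) on treatment and day, with trended variances and Benjamini-Hochberg adjustment over 10865 genes. Ratios of single libraries have no test, and 1.5-fold is a rule of size. On simulated data for the day comparison of 10865 genes, 98.5% of changes of 1 and 100% of changes of 2 on the log2 scale were recovered, with 12 false calls. The simulation gave every gene the same independent noise, changed few genes and held no GC trend or treatment difference. Its rates therefore do not give the power or the false calls of the fit to these data. GC content and hg19 coordinates come from GENCODE on GRCh37 (10184 genes, 93.7%), and its trend was taken as medians in 20 bins. Alternatives changed the pseudocount, scaling, filter, GC trend, variance trend, block and libraries.

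The members and lists were chosen with earlier results of these data known. Values in all libraries were given for the immunoproteasome genes and their counterparts, and the highest and lowest member of PSMA to PSMD by mean FPKM. They were also given for the 3 most positive and 3 most negative day differences, the extremes of each inhibitor ratio, and PSME, PSMF and PSMG genes. Other members, given mostly with differences alone, and the pathway genes named from the lists were picked after their values were seen. The value of 1 marker gene is not reported here.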

Additional observations from a re-analysis of the deposited data

Results flagged for a closer look

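For some results the log2 ratio to DMSO had opposite signs on day 30 and on day 4. The difference between days was not tested for these, since 1 library per condition leaves no residual degrees of freedom. For NCD38 the members' median was 0.04 on day 30 and -0.21 on day 4, beside 0.06 and -0.21 for all expressed genes, and rescaling by the median ratio turned the day 4 value to 0.19. The day 30 value was 0.01 after rescaling and -0.02 with the GC trend subtracted. The residual SD of the members' median per library was 0.17. Of the 46 members 31 (67.4%) changed sign, beside 60.2% of all expressed genes, and 22 of them were above DMSO on day 30 and below it on day 4. For NCD38-β2P4 the median was 0.12 and -0.05, beside 0.06 and 0.09 for all expressed genes. With this conjugate 17 members (37%) changed sign, beside 36.8% of all expressed genes. With NCD38-β2PIPP 19 members (41.3%) changed sign, beside 50.9% of all expressed genes.

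PSMB9 had opposite signs with all 3 inhibitors. On day 30 and day 4 in turn, the log2 ratio of PSMB9 was -0.40 and 0.36 for NCD38, 0.40 and -0.27 for NCD38-β2P4, and 0.38 and -0.53 for NCD38-β2PIPP. The counting half-widths of these 6 ratios were 0.20 to 0.29, so that counting error alone is smaller than each of them, and the error between libraries is not known. PSMB10 was at -0.33 and 0.03 with NCD38, and PSMB8 at 0.11 and -0.44 with NCD38-β2PIPP.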

How the results depend on the processing

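Of 118 values under alternatives, 103 stayed with the reported ones, 14 moved and the exact p of the PSMB8 ratio went from 0.0286 to 0.125 when permuted within treatments, a test added after the data were seen. A count stayed if within 1.5-fold of the reported one, and a median if within 0.17 on the log2 scale, even with another sign. With the GC trend subtracted the day count stayed at 28, although only 19 of the 29 calls were shared. Of the 103, 42 were counts of 0 between treatments. The number of members called between days was 29 and lay between 22 and 30 over 11 alternatives, with 22 to 30 when the libraries of 1 treatment were left out. No member was called between treatments in any of the 42 alternative counts, which are several contrasts of the same model under each setting and not separate fits. The median with NCD38 on day 4 went from -0.21 to 0.19 when libraries were rescaled by their median ratio and to 0.00 with the GC trend subtracted, and that with NCD38-β2PIPP on day 4 from -0.09 to -0.33 and -0.29. Counts of members at least 1.5-fold apart on day 4 were computed under both settings after the data were seen. With NCD38 they went from 0 higher and 15 lower to 4 and 8 rescaled and 3 and 3 with the GC trend subtracted. With NCD38-β2P4, the 5 higher became 1 with the GC trend subtracted, and the 1 lower became 2 under either. With NCD38-β2PIPP, the 12 higher became 3 with the GC trend subtracted, and the 1 lower became 8 rescaled and 6 with the GC trend subtracted. The cause was not tested. The day fit pairs libraries by treatment, and without that block 29 members were again called. No paired analysis by replicate number was possible because the libraries carry none and each condition has 1 library. Depth limits PSMC6 with NCD38 on day 4 most, with a half-width of 0.62.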
